A study of Mus musculus with 18 samples.

Results

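The genes described here encode the myosin light chains Mylpf, Myl1, Myl2, Myl3, Myl4, Myl6, Myl6b and Myl9 and the light chain kinase Mylk. They are 9 of the 35275 genes in the deposited expression table and were chosen by name, each symbol being matched to its Ensembl identifier through a table the authors deposited. RNA-seq, which counts sequenced fragments of RNA per gene, was done on polyadenylated RNA from 18 libraries of C2C12, a mouse myoblast line whose cells fuse into myotubes when serum is withdrawn. The stock is labelled PAX7 NEG. Control cells, labelled wild-type, were compared with cells overexpressing the spliced form of the long noncoding RNA MUNC (MUNC spliced) and with cells overexpressing its genomic form (MUNC genomic). Each was sampled in growth medium with 20% FBS at about 80% confluency (GM) and after 3 days in medium with 2% HS (DM3), which gives 6 groups of 3 biological replicates. Whether a MUNC line was derived from a single clone, and whether the control cells carry a vector, is not given in the sources used here. The level of MUNC was not analysed here, so overexpression was not checked. The comparisons ask how differentiation, and each form of MUNC in either medium, relate to the light chain mRNAs.

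A conventional myosin is built on a pair of heavy chains, and the neck of each heavy chain binds an essential and a regulatory light chain. Mylpf (regulatory) and Myl1 (essential) are the light chains of fast skeletal muscle, Myl4 is the essential chain of embryonic skeletal muscle and the atrium, and Myl2 (regulatory) and Myl3 (essential) belong to ventricular and slow skeletal muscle. Myl6 (essential) and Myl9 (regulatory) serve smooth muscle and nonmuscle myosins, and Myl6b is an essential chain of nonmuscle and slow muscle myosins. Mylk is the calmodulin-dependent kinase that phosphorylates regulatory light chains of smooth muscle and nonmuscle myosin. During myogenesis the muscle-specific chains are switched on together with the sarcomeric heavy chains, under regulators such as Myod1 and Myog that bind E-boxes. The smooth muscle and cytoskeletal chains are known for control by serum response factor, which binds CArG boxes.

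The stretches upstream of 3 members are shown because they carry the letters of those known motifs: a fast regulatory chain, a fast essential chain and the smooth muscle regulatory chain Myl9, which lay on the other side of control in MUNC spliced DM3. Sequences are from RefSeq on GRCm38.p6, 5′ to 3′ on the gene's strand, and cover the part of the 250 bases before the annotated start that lies outside every GENCODE exon. Capitals mark the E-box CAGCTG in Mylpf and Myl1 and the CArG box in Myl9.
Mylpf, chr7:127211358-127211607, + strand: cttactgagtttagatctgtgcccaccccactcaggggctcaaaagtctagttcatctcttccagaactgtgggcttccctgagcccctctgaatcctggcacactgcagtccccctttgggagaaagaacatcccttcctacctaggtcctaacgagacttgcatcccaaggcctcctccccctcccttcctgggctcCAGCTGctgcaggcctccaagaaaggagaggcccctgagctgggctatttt
Myl1, chr1:66945144-66945290, - strand: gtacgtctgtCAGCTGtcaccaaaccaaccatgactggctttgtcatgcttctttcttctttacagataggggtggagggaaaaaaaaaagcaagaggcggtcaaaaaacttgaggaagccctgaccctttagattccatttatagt
Myl9, chr2:156775214-156775419, + strand: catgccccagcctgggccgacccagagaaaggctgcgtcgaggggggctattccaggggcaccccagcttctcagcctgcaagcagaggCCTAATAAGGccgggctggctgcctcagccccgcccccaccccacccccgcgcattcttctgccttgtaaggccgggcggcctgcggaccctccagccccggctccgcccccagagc
All 9 members had a RefSeq window, with 11 windows among them. The E-box (CANNTG), its form CAGCTG (which is also counted among the E-boxes), the MEF2 site and the CArG box were searched by their letters on both strands. CAGCTG began 51 bases before the RefSeq start of Mylpf and 224 bases before that of Myl1. The stretches shown for these genes lie inside the GENCODE span of each gene, which begins further upstream. It also began 130 bases before a start of Myl2, whose windows held other E-boxes at 22 and 48 bases, and Myl3 had an E-box at 189 bases, although both of these members were near 0 reads here. The CArG box of Myl9 began 161 bases before its start. A CArG box was also found 50 bases before a second start of Myl6 and 85 bases before the start of Myl3. An E-box stood 127 bases before the start of Myl6b and 71 bases before the first start of Myl6. The single windows of Myl4 and Mylk held none of these letters, and their other starts were not searched. Among 32851 windows of the same length, 66.2% held an E-box, 13.0% CAGCTG, 2.92% a MEF2 site and 1.47% a CArG box. These matches describe letters and not binding.

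Values are in FPM, the number of reads of a gene after scaling each library by its own size factor. The libraries held 38416702 to 68788327 reads, and 3 reads, the upper limit for a gene with no reads, came to at most 0.0757 FPM. Such limits cover counting error only. Genes with 0.5 FPM or more in at least 3 libraries were tested with limma on log2(FPM + 1), which gave 13869 genes. "Called" means that the p-value, adjusted by Benjamini and Hochberg over all of them, was under 0.05. Log2 changes below are of FPM + 1, so those of scarce transcripts are smaller than the change in reads. Of the 9 members, 7 were tested. Pax7 averaged under 0.5 FPM in all groups, as did Myod1, Myog, Ckm and Actc1 in both control groups, so these muscle markers were near 0 in control cells in DM3 too. Others of the list were not. Of 11 myoblast and myotube markers tested, 5 were higher and 1 lower in control DM3 than in control GM, beside 58.2% of all genes called. Chrna1 went from 14.9 ± 1.87 to 97.3 ± 25.0 FPM, while Acta1, the lower one, went from 20.7 ± 9.96 to 4.35 ± 1.18 FPM (SD, n = 3). In RNA from whole cultures, fewer cells with a transcript and less of it per cell cannot be told apart. The source name label disagreed with the sample title on the medium in 9 samples, and groups follow the titles.

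Mylpf (ENSMUSG00000030672, chromosome 7, 127208890 to 127214298, + strand of GRCm38) was low in control GM, with 0.615, 0.496 and 0.507 FPM in replicates 1, 2 and 3. In control DM3 it was at 1.86, 4.66 and 3.54 FPM. These groups did not overlap, and the log2 change was 1.45 (SE 0.49, adjusted p = 0.0189). Without control DM3 replicate 2 or replicate 3 the adjusted p rose above the threshold, to at most 0.0768. In MUNC spliced cells Mylpf was at 2.52, 3.98 and 8.26 FPM in GM and at 159.8, 30.0 and 35.1 FPM in DM3. In MUNC genomic cells it was at 0.573, 0.793 and 0.588 FPM in GM and at 15.3, 32.2 and 15.4 FPM in DM3. The MUNC genomic GM libraries overlapped those of control GM, while all 6 DM3 libraries of the MUNC lines lay above every control library. Mylpf rose on differentiation in both MUNC lines, by 3.37 with the spliced form (SE 0.49, adjusted p = 0.000107) and by 3.65 with the genomic form (SE 0.49, adjusted p = 1.85e-05).

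Myl1 (ENSMUSG00000061816, chromosome 1, 66924295 to 66945404, - strand) had no read in the 3 control GM libraries. Control DM3 held 0.0192, 0.217 and 0.092 FPM, which were 1, 11 and 5 reads. MUNC spliced GM held 0.379, 0.513 and 1.10 FPM and MUNC genomic GM 0.0859, 0.034 and 0 FPM. In DM3, Myl1 reached 32.4, 5.58 and 12.0 FPM in MUNC spliced and 3.80, 7.16 and 3.42 FPM in MUNC genomic cells. Against a floor of 3 reads per library, 0.0501 FPM on average, the mean of control DM3 was at least 2.18-fold higher than that of control GM, and at least 1.11-fold without its highest library, replicate 2. For MUNC spliced GM it was at least 13.2-fold higher, and at least 8.89-fold without its highest library. Myl1 passed the filter on low values only through the MUNC lines, since 8 libraries held 0.5 FPM or more and 0 of them were control. It therefore had to be higher in those lines, and its differences from control below are descriptions. Its log2 change on differentiation was 3.12 in MUNC spliced and 2.42 in MUNC genomic cells, without overlap of libraries. Its limma change in control DM3 was 0.15 (adjusted p = 0.772), whereas edgeR on the recovered reads gave 5.60 (adjusted p = 0.0406).

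Myl4 (ENSMUSG00000061086, chromosome 11, 104550663 to 104595753, + strand) did not follow Mylpf in control cells. Control GM was at 0.666, 0.602 and 0.907 FPM and control DM3 at 0.615, 0.434 and 0.387 FPM, with overlapping libraries and a log2 change of -0.22 (95% interval -0.71 to 0.27, adjusted p = 0.436). MUNC spliced cells went from 1.77, 1.17 and 1.86 FPM in GM to 16.5, 6.36 and 8.48 FPM in DM3. MUNC genomic cells went from 0.945, 0.810 and 1.03 FPM to 3.50, 5.33 and 3.53 FPM. These rises were 2.05 (SE 0.23, adjusted p = 1.08e-05) and 1.39 (adjusted p = 0.000129). In DM3 the 3 groups did not overlap for Myl4, with MUNC spliced highest and control lowest. Antisense genes overlap Myl4, and since strand use in counting is not given in the sources used here, their reads could have been counted with it.

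**Figure D1:**
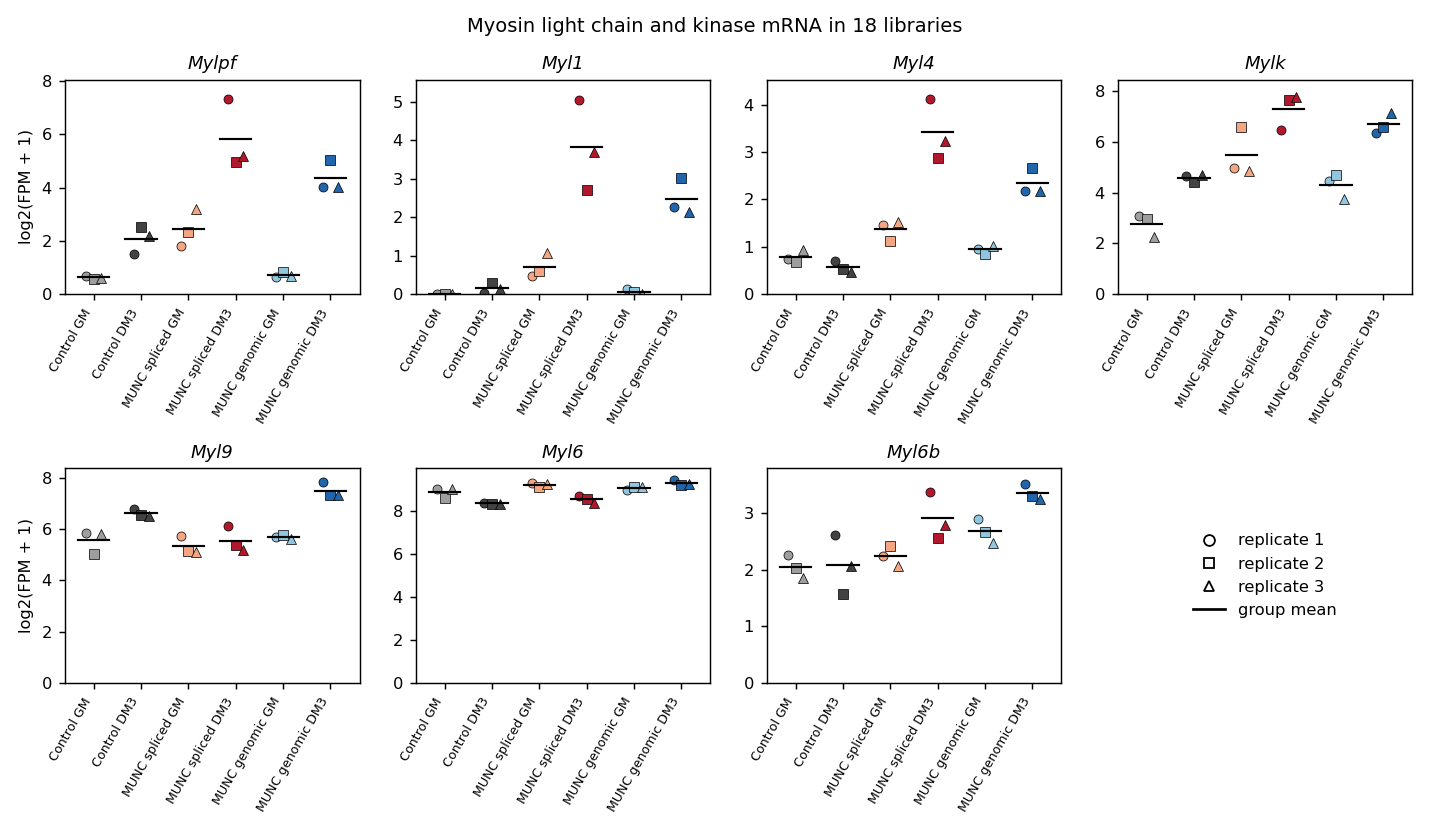
Level of the 7 tested members in each of the 18 libraries, as log2(FPM + 1) on the vertical axis, with groups on the horizontal axis, a symbol per replicate and a line at the group mean; vertical scales differ between panels. Mylpf, Myl1 and Myl4 are highest in MUNC spliced DM3, where replicate 1 stands above the other libraries, while Myl9 is highest in MUNC genomic DM3.

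In DM3 the fast and embryonic chains were higher in both MUNC lines than in control. For MUNC spliced against control, Mylpf rose by 3.75 (SE 0.49, adjusted p = 1.5e-05), Myl1 by 3.68 (SE 0.39, a description because of the limit of its filter above) and Myl4 by 2.86 (SE 0.23, adjusted p = 8.46e-08). For MUNC genomic the rises were 2.30 for Mylpf (SE 0.49, adjusted p = 0.00134), 2.33 for Myl1 (SE 0.39, again a description) and 1.78 for Myl4 (SE 0.23, adjusted p = 1.35e-05). In mean FPM, Myl4 was 21.8-fold and 8.62-fold above control DM3 in the spliced and genomic lines. Replicate 1 of MUNC spliced DM3 held the highest level of all 3 genes and the lowest level of Mylk in its group. Without that library the differences from control were 3.00 for Mylpf and 2.50 for Myl4, both still called, and 3.07 for Myl1 as a description. All 3 were higher in MUNC spliced than in MUNC genomic DM3, by 1.45 for Mylpf (adjusted p = 0.0247), 1.35 for Myl1 (adjusted p = 0.00948) and 1.08 for Myl4 (adjusted p = 0.00128). Mylpf and Myl1 libraries of these groups overlapped, and without MUNC spliced DM3 replicate 1 the differences were 0.69 for Mylpf (adjusted p = 0.143), 0.73 for Myl1 and 0.72 for Myl4, the last 2 still called. The Mylpf call also ended without MUNC genomic DM3 replicate 1 or 3.

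In GM, Mylpf was already higher in MUNC spliced than in control cells, by 1.83 (SE 0.49, adjusted p = 0.0088), and its 3 libraries lay above all control GM libraries. Myl1 differed by 0.71 (adjusted p = 0.165) with limma, while edgeR and DESeq2 called it (edgeR 8.21, adjusted p = 0.00133), with the limit of its filter above. Myl4 differed by 0.59 (adjusted p = 0.0607), and with the replicate number as a block the adjusted p was 0.0494. In MUNC genomic GM none of these 3 genes was called, with changes of 0.10 for Mylpf (95% interval -0.94 to 1.14), 0.06 for Myl1 and 0.16 for Myl4. Compared directly in GM, Mylpf was higher in MUNC spliced than in MUNC genomic cells by 1.73 (adjusted p = 0.0117), a call that ended without MUNC spliced GM replicate 3 (adjusted p = 0.0599). The differences there were 0.65 for Myl1 (95% interval -0.16 to 1.47, adjusted p = 0.202) and 0.42 for Myl4 (95% interval -0.07 to 0.92, adjusted p = 0.172), neither called.

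Whether a line differentiated differently from control is the interaction of line and medium. Myl4 rose more than in control cells in both lines, by 2.27 for MUNC spliced (SE 0.33, adjusted p = 0.000727) and 1.61 for MUNC genomic (SE 0.33, adjusted p = 0.00525), and edgeR called both. The Myl1 interactions were 2.97 (SE 0.55, adjusted p = 0.00319) and 2.28 (SE 0.55, adjusted p = 0.015). They rest on a control baseline of 0 reads and on a gene tested only through the MUNC lines: on recovered reads edgeR gave -0.96 (adjusted p = 0.708) and 1.07 (adjusted p = 0.899) for Myl1. The Mylpf interactions of 1.93 and 2.20 were not called (adjusted p = 0.0726 and 0.0599). The differentiation responses of the MUNC lines were compared with each other too, and for Mylpf, Myl1 and Myl4 none was called, the intervals being -1.75 to 1.19, -0.46 to 1.85 and -0.04 to 1.36.

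Mylk (ENSMUSG00000022836, chromosome 16, 34745210 to 35002420, + strand) rose on differentiation in all 3 kinds of cell and was higher in both MUNC lines in either medium. Control cells held 7.36, 6.85 and 3.76 FPM in GM and 24.3, 20.2 and 24.9 FPM in DM3. MUNC spliced cells held 30.5, 94.7 and 27.8 FPM in GM and 86.6, 199.7 and 217 FPM in DM3. MUNC genomic cells held 21.04, 25.2 and 12.4 FPM in GM and 80.4, 96.0 and 138 FPM in DM3. Every MUNC spliced GM library therefore exceeded every control DM3 library; that pair was not among the comparisons tested. The order of groups by mean was control GM, MUNC genomic GM, control DM3, MUNC spliced GM, MUNC genomic DM3 and MUNC spliced DM3. Neighbours in this order overlapped except control GM with MUNC genomic GM and control DM3 with MUNC spliced GM.

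The Mylk changes on differentiation were 1.83 in control (SE 0.42, adjusted p = 0.00148), 1.82 in MUNC spliced (adjusted p = 0.00341) and 2.39 in MUNC genomic cells (adjusted p = 0.000208). The MUNC spliced GM and DM3 libraries overlapped, through GM replicate 2 and DM3 replicate 1. Neither interaction of Mylk was called, with intervals of -1.26 to 1.26 for MUNC spliced and -0.70 to 1.82 for MUNC genomic cells. The responses of the lines differed by -0.56 (adjusted p = 0.606). Against control, MUNC spliced cells were higher by 2.71 in GM (adjusted p = 0.000134) and 2.70 in DM3 (adjusted p = 8.38e-05). In MUNC genomic cells the excess over control was 1.54 in GM (adjusted p = 0.0121) and 2.10 in DM3 (adjusted p = 0.000793). The GM call for MUNC genomic ended without control GM replicate 3 or MUNC genomic GM replicate 2, at an adjusted p of at most 0.0582. Between the MUNC lines, Mylk was higher in MUNC spliced by 1.16 in GM (adjusted p = 0.0405), a call that ended in 3 of 6 fits with 1 library left out, and differed by 0.60 in DM3 (95% interval -0.29 to 1.49, adjusted p = 0.265). Antisense genes overlap Mylk as well.

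Myl9 (ENSMUSG00000067818, chromosome 2, 156775420 to 156781658, + strand) lay on opposite sides of control in the MUNC lines in DM3. Control cells held 57.2, 31.5 and 54.8 FPM in GM and 111, 93.5 and 91.7 FPM in DM3, a rise of 1.07 (SE 0.25, adjusted p = 0.00157). MUNC spliced cells held 51.9, 34.8 and 33.4 FPM in GM and 68.7, 40.6 and 35.0 FPM in DM3, overlapping groups with a change of 0.23 (95% interval -0.30 to 0.75, adjusted p = 0.501). MUNC genomic cells held 50.1, 54.3 and 47.8 FPM in GM and 228, 162 and 159.95 FPM in DM3, a rise of 1.81 (adjusted p = 2.18e-05). In GM the 3 kinds of cell overlapped for Myl9 and no difference was called, the values being -0.23 for MUNC spliced and 0.13 for MUNC genomic against control and -0.36 between the lines (adjusted p = 0.278 to 0.766). In DM3 the groups were fully separate, with MUNC spliced lowest and MUNC genomic highest. Myl9 was lower in MUNC spliced DM3 than in control DM3 by a log2 change of -1.08 (SE 0.25, adjusted p = 0.00234), and higher in MUNC genomic DM3 by 0.87 (SE 0.25, adjusted p = 0.0102). The second call ended without MUNC genomic DM3 replicate 1 (adjusted p = 0.0577). Between the MUNC lines in DM3 the difference was -1.95 (SE 0.25, adjusted p = 8.61e-06), and their differentiation responses differed by -1.59 (SE 0.35, adjusted p = 0.00876). Against control, the interaction for MUNC spliced was -0.84 (adjusted p = 0.115, and 0.0253 with the replicate number as a block) and for MUNC genomic 0.74 (adjusted p = 0.225).

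Smooth muscle and myofibroblast markers moved with Myl9 only in part and not in every comparison. Of 7 such markers tested, 4 were higher and 1 lower in MUNC genomic DM3 than in control DM3, beside 40.3% of all genes called. Among the higher were Lmod1, an actin filament nucleator of smooth muscle (23.6 ± 7.39 FPM against 1.64 ± 0.0863, SD, n = 3), and Actg2, the enteric smooth muscle actin (146 ± 48.4 against 41.9 ± 14.7 FPM, SD, n = 3). The lower one was Cnn1, smooth muscle calponin (1.75 ± 1.37 against 6.36 ± 1.22 FPM). In MUNC spliced DM3, 1 was higher (Acta2) and 3 were lower (Actg2, Cald1 and Cnn1) than in control, beside 43.3% of all genes. On differentiation of control cells, where Myl9 rose, 1 was higher and 3 were lower, beside 58.2% of all genes called. The largest of those changes, -2.31 for Tagln and -1.27 for Cnn1, went against Myl9. On differentiation of MUNC genomic cells, where Myl9 rose too, 1 was higher (Lmod1) and 1 lower (Cnn1), beside 51.4%. Summed over the 8 markers, the libraries held 2737 to 3216 FPM in control DM3, 3050 to 4515 FPM in MUNC spliced DM3 and 3711 to 5584 FPM in MUNC genomic DM3. The smooth muscle heavy chain Myh11 averaged under 0.5 FPM in every group. The part of these markers in the Myl9 result was not tested.

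Myl6 (ENSMUSG00000090841, chromosome 10, 128490860 to 128494145, - strand) was the most abundant member throughout. Control cells held 518, 392 and 527 FPM in GM and 336, 322 and 326 FPM in DM3, so that it fell by 0.53 on the log2 scale (SE 0.12, adjusted p = 0.00151). MUNC spliced cells held 643, 558 and 612 FPM in GM and 422, 377 and 332 FPM in DM3, and it fell by 0.68 (SE 0.12, adjusted p = 0.000551). MUNC genomic cells held 501, 560 and 566 FPM in GM and 706, 601 and 626 FPM in DM3, a change of 0.25 (95% interval -0.01 to 0.51, adjusted p = 0.105). No library of MUNC genomic DM3 lay below those of its GM, and the interaction of 0.78 was called (SE 0.17, adjusted p = 0.00955). The responses of the MUNC lines differed by -0.93 (SE 0.17, adjusted p = 0.00274). In DM3, Myl6 was higher in MUNC genomic cells than in control by 0.97 (adjusted p = 9.64e-06) and than in MUNC spliced cells by 0.77 (difference spliced minus genomic -0.77, adjusted p = 8.21e-05). In GM, MUNC spliced cells exceeded control by 0.34 (adjusted p = 0.0386), a call that ended in 3 of 6 fits with 1 library left out and with edgeR (adjusted p = 0.0756). Myl6 was not called for MUNC genomic against control in GM (0.19, adjusted p = 0.288), between the lines in GM (0.16, adjusted p = 0.347), for MUNC spliced against control in DM3 (0.19, 95% interval -0.07 to 0.45) or in the MUNC spliced interaction (-0.15, 95% interval -0.52 to 0.22).

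Myl6b (ENSMUSG00000039824, chromosome 10, 128494157 to 128498685, - strand) lies 11 bases from Myl6 on the same strand, so reads at their border could have been assigned to either. Control cells held 3.81, 3.10 and 2.63 FPM in GM and 5.13, 1.95 and 3.17 FPM in DM3, without a called change (0.03, 95% interval -0.48 to 0.53). MUNC spliced cells held 3.71, 4.36 and 3.19 FPM in GM and 9.40, 4.91 and 5.89 FPM in DM3. MUNC genomic cells held 6.47, 5.32 and 4.52 FPM in GM and 10.4, 8.90 and 8.47 FPM in DM3. Every MUNC genomic library lay above every control GM library, and MUNC genomic DM3 exceeded control DM3 by 1.28 (SE 0.24, adjusted p = 0.000454). MUNC spliced DM3 exceeded control DM3 by 0.83 (adjusted p = 0.0103), a call that ended without control DM3 replicate 2 or MUNC spliced DM3 replicate 1. The rises on differentiation, 0.67 in MUNC spliced (adjusted p = 0.0395) and 0.68 in MUNC genomic cells (adjusted p = 0.0255), each ended in 4 of 6 fits with 1 library left out. In GM, MUNC genomic cells exceeded control by 0.62 (adjusted p = 0.0647), and with the replicate number as a block the adjusted p was 0.0149. Against control GM, MUNC spliced GM differed by 0.19 (adjusted p = 0.569). Between the lines Myl6b differed by -0.43 in GM (adjusted p = 0.173) and -0.45 in DM3 (adjusted p = 0.143), the second being called without MUNC spliced DM3 replicate 1. Its interactions of 0.64 and 0.65 (adjusted p = 0.212 and 0.273) and the difference of the lines' responses (95% interval -0.73 to 0.70) were not called.

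The ventricular and slow muscle chains were not detectable beyond single reads at this depth. Myl2 (ENSMUSG00000013936, chromosome 5) had 2 reads over all 18 libraries, both in control GM. Myl3 (ENSMUSG00000059741, chromosome 9) had 3 reads, 2 in MUNC spliced GM and 1 in MUNC spliced DM3. Neither was tested. Of the 6 cardiac markers, Nppa, Myh6 and Actn2 averaged under 0.5 FPM in every group, while Tnnt2, troponin T of heart and developing muscle, averaged 17.0 to 65.4 FPM, and the 6 summed to 14.7 to 68.7 FPM over all libraries. Of the 3 tested, 1 was higher in MUNC genomic than in control DM3, beside 40.3% of all genes called (the cardiac troponin Tnni3, 2.49 ± 0.34 against 1.08 ± 0.249 FPM, SD, n = 3). For MUNC spliced against control in DM3, 0 were called, beside 43.3% of all genes.

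**Figure D2:**
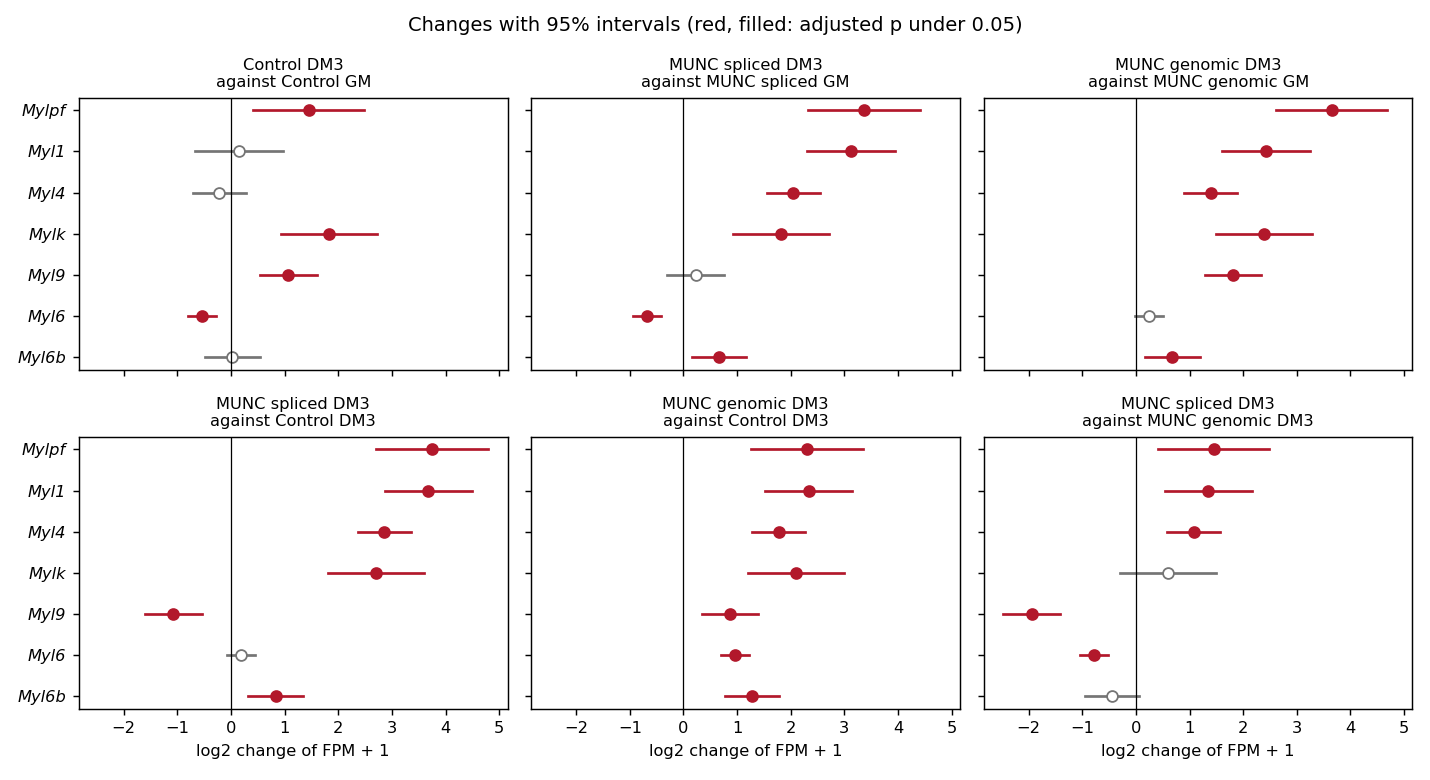
Log2 change of FPM + 1 for the 7 tested members in 6 comparisons, as points with 95% intervals from limma; filled red points are called. The upper row shows DM3 against GM within each kind of cell, and the lower row shows the differences between kinds of cell in DM3, where Myl9 lies at -1.08 for MUNC spliced and 0.87 for MUNC genomic cells.

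Counted over the 7 tested members, differentiation in control cells called 4. Of these, 3 were higher (Mylpf, Myl9 and Mylk) and 1 lower (Myl6). Of all genes tested 58.2% were called there, 29.6% higher and 28.6% lower, so the share of members is near the background. In MUNC spliced cells differentiation called 6, with Myl6 lower and the other 5 higher, against 35.6% of all genes (17.2% higher, 18.4% lower). In MUNC genomic cells it called 6, all higher, against 51.4% (26.3% higher, 25.1% lower). All but Myl6 of the tested members were thus called as higher in MUNC genomic DM3 than in its GM.

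In GM, 3 members were higher in MUNC spliced than in control (Mylpf, Myl6 and Mylk), against 35.5% of all genes called (18.2% higher, 17.3% lower). For MUNC genomic only Mylk was called, against 26.8% (12.2% higher, 14.5% lower). In DM3, MUNC spliced differed from control in 6 members, 5 higher and Myl9 lower, against 43.3% (22.3% higher, 21% lower). All 7 tested members were called as higher in MUNC genomic than in control DM3, against 40.3% of all genes called (19.3% higher, 20.9% lower). Between the MUNC lines in GM, 2 members were higher in MUNC spliced (Mylpf and Mylk), against 35.8% (19.9% higher, 16% lower). In DM3, Mylpf, Myl1 and Myl4 were higher and Myl9 and Myl6 lower in MUNC spliced, 5 calls against 44.2% (23.4% higher, 20.8% lower). The interaction with differentiation called 2 members for MUNC spliced, Myl1 and Myl4, against 14.4% (7.43% higher, 6.94% lower). For MUNC genomic it called 3, Myl1, Myl4 and Myl6, against 8.81% (3.56% higher, 5.25% lower). The direct comparison of the lines' responses called 2, Myl9 and Myl6, both lower in MUNC spliced, against 10.5% (5.36% higher, 5.17% lower). A member that passed the filter through the MUNC lines alone, as Myl1 did, had to be higher there, so these counts describe the genes and carry no test. Among all calls for MUNC spliced against control in GM, 51.3% were higher, and 66.2% with libraries scaled to equal FPM sums. For MUNC genomic the same shares were 45.6% and 56.2%. For the MUNC spliced interaction they were 51.7% and 41.4%, and edgeR gave 62.1%.

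Levels of different genes were set side by side per kilobase of annotated exon, within each class of light chain. Among the essential chains Myl6 made up 98.7% ± 0.25 (SD, n = 3) of the class in control GM and 98.1% ± 0.743 in control DM3. It made up 89.9% ± 5.09 in MUNC spliced DM3, where single libraries ranged from 84.5% to 94.6%, and 96.1% ± 0.722 in MUNC genomic DM3. The nonmuscle chain was the bulk of essential light chain mRNA in every library, including those with the most Myl1. Myl1 reached 5.73% ± 3.96 of the class in MUNC spliced DM3 and 1.12% ± 0.541 in MUNC genomic DM3. Among the regulatory chains, with the nonmuscle chains Myl12a and Myl12b included, Mylpf was 0.215% ± 0.00944 in control GM, 1.10% ± 0.437 in control DM3, 18.0% ± 12.5 in MUNC spliced DM3 and 4.82% ± 2.42 in MUNC genomic DM3. Myl9 was 29.8% ± 3.66 in control DM3, 11.8% ± 0.754 in MUNC spliced DM3 and 37.5% ± 3.47 in MUNC genomic DM3. Exonic length decides part of these shares, since the annotated exons of Myl6 cover 3187 of its 3286 bases through retained-intron models. Per kilobase of coding sequence, Mylpf was 7.97% ± 6.41 in MUNC spliced and 2.19% ± 1.10 in MUNC genomic DM3, and Myl9 was 13.5% ± 2.00, 5.38% ± 0.952 and 18.4% ± 1.95 in control, MUNC spliced and MUNC genomic DM3, with the same order of groups.

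**Figure D3:**
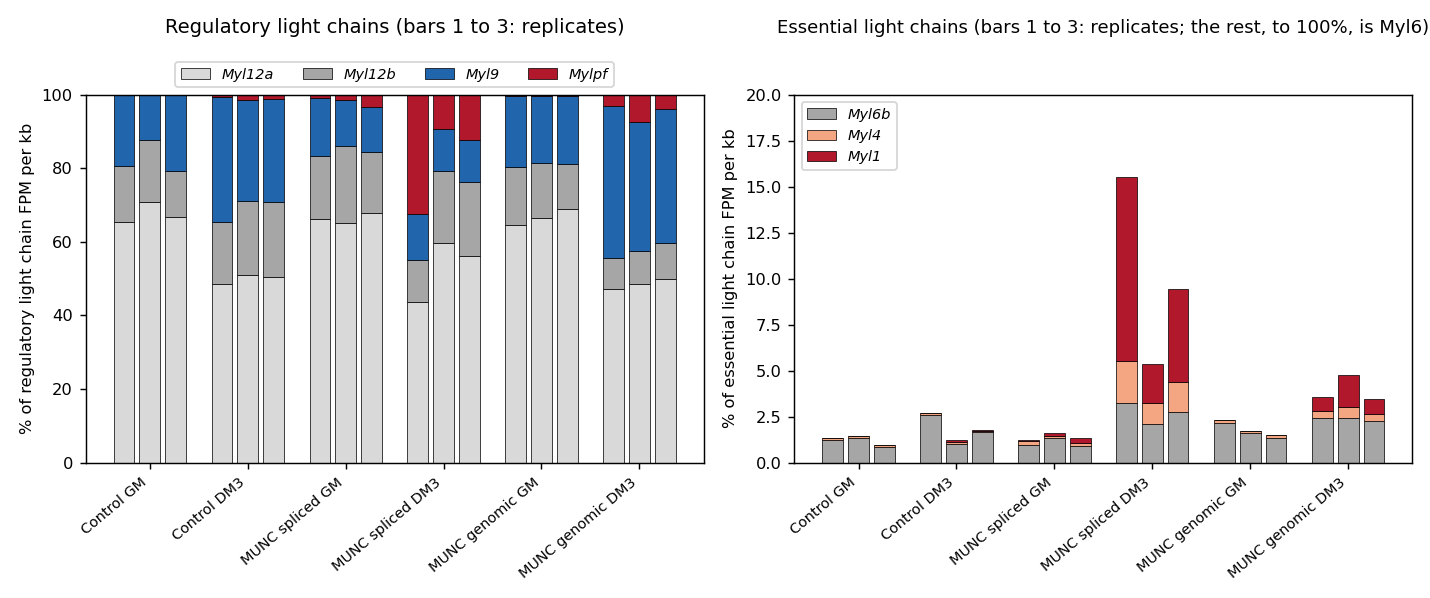
Share of light chain mRNA per class and library, in percent of summed FPM per kb of exon, with 3 bars (replicates 1 to 3) per group; the left axis runs to 100% and the right to 20%, with Myl6 as the rest. Mylpf reaches 9.31% to 32.3% of regulatory chains in MUNC spliced DM3, and Myl9 takes 34.8% to 41.4% in MUNC genomic DM3.

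The other light chains and kinases of the family were given the same comparisons. Myl12a and Myl12b, near-identical nonmuscle regulatory chains whose reads may have been split between them, held 457 to 751 FPM and 76.2 to 164 FPM over the 18 libraries. Myl12b rose by 0.65 in control DM3 against GM (adjusted p = 0.000989) and was lower in MUNC genomic DM3 than in control DM3, with a change of -0.54 (adjusted p = 0.00676). Myl12a was higher there, by 0.50 (adjusted p = 0.00355). Myl7, the atrial regulatory chain, had 1 read in all, and Myl10 averaged at most 0.1004 FPM in any group.

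Mylk3, the kinase best known from heart, held 2.35, 2.02 and 2.64 FPM in MUNC spliced DM3, against 0.0384, 0.138 and 0.350 FPM in control DM3 and 0.297, 0.301 and 0.234 FPM in MUNC genomic DM3. The MUNC spliced DM3 libraries lay above all others. Mylk3 passed the filter on low values only through MUNC spliced cells, since all 5 libraries at 0.5 FPM or more were of that line and 0 of them were control. It had to be higher there, so its log2 differences are given as descriptions. They were 1.51 from control and 1.38 from MUNC genomic cells in DM3, 0.51 from control in GM and 1.051 between MUNC spliced DM3 and GM. Mylk4 was not tested. It held 2.41, 0.470 and 0.289 FPM in MUNC spliced DM3 and at most 0.147 FPM in any other library. Mylk2, the skeletal muscle kinase, held 0.119 to 1.36 FPM, and its smallest adjusted p with limma over the 12 comparisons was 0.0833, for MUNC spliced GM against control GM.

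**Figure D4:**
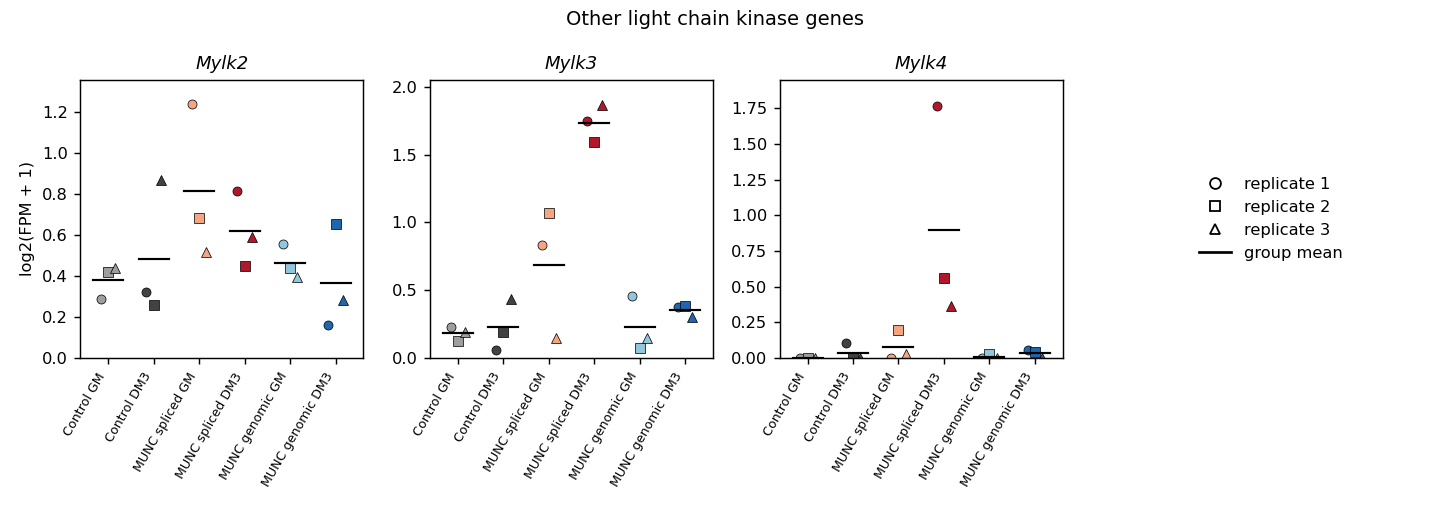
Level of Mylk2, Mylk3 and Mylk4 in each library as log2(FPM + 1), with a symbol per replicate and a line at the group mean; vertical scales differ. Mylk3 in MUNC spliced DM3 lies between 2.02 and 2.64 FPM, above every other library.

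Genes that act on light chain phosphorylation outside the Mylk family (the myosin phosphatase, its inhibitors and other regulators) were followed as a list of 19, of which 17 were tested. In control cells 4 were higher and 5 lower in DM3, with a median log2 change of -0.07 beside 0.02 for all genes, of which 58.2% were called. Ppp1r14b, a phosphatase inhibitor, fell by 1.25. In MUNC spliced cells 1 rose and 3 fell on differentiation (35.6% of all genes called), and in MUNC genomic cells 2 rose and 5 fell (51.4%). Ppp1r12b, a targeting subunit of the phosphatase, was among those that rose in both, by 0.77 (adjusted p = 0.000125) and 0.61 (adjusted p = 0.00037). The rise of Ppp1r12b was not particular to the MUNC lines: its control DM3 mean of 16.1 FPM (SD 1.44) exceeded the control GM mean of 9.90 FPM (SD 0.704). Ppp1r14b fell in both MUNC lines as it did in control, with changes of -0.83 in MUNC spliced (adjusted p = 0.00896) and -0.83 in MUNC genomic cells (adjusted p = 0.00527). Against control in GM, 3 were higher and 1 lower in MUNC spliced cells (35.5% of all genes called), and 4 higher and 1 lower in MUNC genomic cells (26.8%), with Ppp1r12b higher in both. In DM3, 4 were higher and 4 lower in MUNC spliced cells than in control (43.3% of all genes called), and 1 was higher (Ppp1r12b, 0.75) and 1 lower (Rock2, -0.73, adjusted p = 0.000893) in MUNC genomic cells (40.3%).

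The heavy chains that bind these light chains were a list of 12, of which 5 were tested. In control cells 1 was higher and 1 lower in DM3, beside 58.2% of all genes called. They were the nonmuscle chains Myh14 (1.88, adjusted p = 0.00278) and Myh10 (-0.77, adjusted p = 0.000125). In DM3, 3 were higher (Myh3, Myh1 and Myh10) and 1 lower (Myh14) in MUNC spliced than in control cells, beside 43.3% of all genes called, and 3 were higher in MUNC genomic (Myh3, Myh14 and Myh10), beside 40.3%. Myh1 averaged 0 FPM in control DM3 and could not be lower in MUNC spliced DM3, so its difference there is a description. Both control means of Myh3 lay under the filter level of 0.5 FPM, at 0.444 in DM3 and 0.309 in GM. Myh3 was therefore tested only through the MUNC lines, and its part of both counts against control is a description as well. Myh3, the embryonic skeletal heavy chain, averaged 79.8 ± 84.7 FPM in MUNC spliced DM3, with libraries from 24.2 to 177 FPM and a mean of 31.1 FPM without the highest, 9.64 ± 2.92 FPM in MUNC genomic DM3 and 0.444 ± 0.0629 FPM in control DM3 (SD, n = 3). Myh14 was at 21.3 ± 3.21 FPM in MUNC genomic DM3 and 0.329 ± 0.153 FPM in MUNC spliced DM3, a difference of -4.06 (adjusted p = 2.96e-06) in the same direction as Myl9. Between the lines in DM3, 3 heavy chains were higher in MUNC spliced (Myh3, Myh1 and the nonmuscle Myh10) and 2 lower (the nonmuscle Myh14 and Myh9), beside 44.2% of all genes called. The nonmuscle chains thus stood on both sides, while Myh1 averaged 5.51 ± 6.75 FPM in MUNC spliced DM3 (SD, n = 3), with an SD above its mean. Myh10 averaged 275 ± 14.3 FPM in MUNC spliced and 154 ± 10.9 FPM in MUNC genomic DM3, and among the light chains nonmuscle Myl12b was higher in MUNC spliced by 0.55 (adjusted p = 0.00534), opposite to Myl9.

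Of 7 myogenic regulators, 5 were tested. In DM3, 3 were higher (Myod1, Myog and Mef2a) and 1 lower in each MUNC line than in control, beside 43.3% of all genes called for MUNC spliced and 40.3% for MUNC genomic. Myod1 and Myog passed the filter on low values only through the MUNC lines. They therefore had to be higher there, and their part of these counts is a description. The lower one was Mef2d in MUNC spliced (-0.61) and Myf5 in MUNC genomic cells (-1.82). Myog, which drives terminal differentiation, averaged 106 ± 104 FPM in MUNC spliced, 9.70 ± 4.40 FPM in MUNC genomic and 0.344 ± 0.132 FPM in control DM3 (SD, n = 3). Myod1, the myoblast determination factor, averaged 28.6 ± 21.5, 18.4 ± 3.99 and 0.0993 ± 0.112 FPM in the same groups. Without the highest library of MUNC spliced DM3 its mean was 46.8 FPM for Myog and 16.2 FPM for Myod1, the latter below MUNC genomic. In GM, Myog was at 9.27 ± 3.59 FPM in MUNC spliced and 0.0815 ± 0.0736 FPM in MUNC genomic cells. Between the same groups Mylpf was called, while Myl1 and Myl4 were not, and a link to Myog was not tested. Of the 12 myoblast and myotube markers, 11 were tested, and their summed level in DM3 was 337 to 473 FPM in control, 789 to 1737 FPM in MUNC spliced and 1287 to 1466 FPM in MUNC genomic libraries. Most of the MUNC genomic sum was Des, the muscle intermediate filament desmin, at 898 ± 99.5 FPM against 58.8 ± 31.0 FPM in MUNC spliced DM3, a difference of -4.02 (adjusted p = 7.14e-08) opposite in sign to that of Myog. Of the other 10 tested, 7 were higher in MUNC spliced than in MUNC genomic DM3, beside 44.2% of all genes called. Fibroblast markers were 6 genes, 5 of them tested, and on differentiation 4 rose in control, 2 in MUNC spliced and 3 in MUNC genomic cells, beside 58.2%, 35.6% and 51.4% of all genes called. Dcn, the matrix proteoglycan decorin, went from 17.4 ± 11.5 to 186 ± 57.9 FPM in control cells. The 6 summed to 6916 to 8202 FPM in control, 13290 to 13821 FPM in MUNC spliced and 9759 to 11131 FPM in MUNC genomic DM3. The part of these markers in the light chain results was not tested. Serum response factor and its coactivators were 4 listed genes, of which 3 were tested. None was called by limma in the 12 comparisons, at most 1 of the 3 had an unadjusted p under 0.05 in any of them, and edgeR called none. DESeq2 called 1 in MUNC spliced against MUNC genomic DM3, and limma on libraries scaled to equal FPM sums called 1 on differentiation of MUNC spliced cells.

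Likeness to the members was measured as Pearson's r of log2(FPM + 1) over the 18 libraries among genes averaging at least 5 FPM. These values mostly reflect differences between the 6 groups, which all genes share. Closest to Mylpf were Tnnt3, fast skeletal troponin T (r = 0.966), and Myh3 (0.965). Closest to Myl1 were Myh3 (0.986) and Ryr1, the calcium release channel of skeletal muscle (0.971), and the same genes were closest to Myl4 (0.977 and 0.963). Mylk was closest to St3gal2 (0.967) and Pcdhb14 (0.966), Myl9 to Tmed4 (0.926) and Wdr47 (0.909), and Daglb (0.890) was among the closest to Myl6 and Nt5c2 (0.902) among the closest to Myl6b. Among the members, Mylpf, Myl1 and Myl4 ran together with r of 0.922 to 0.981, while Myl9 and Myl1 had r = 0.203 and Myl6 and Mylk r = -0.00101.

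The authors' deposited table for control cells gave log2 fold changes between DM and GM of 2.61 for Mylpf (adjusted p = 4.12e-11), 1.93 for Mylk (adjusted p = 1.11e-13), 1.02 for Myl9 and -0.57 for Myl6, without a pseudocount. It gave 5.12 for Myl1 (adjusted p = 0.0212), the member on which it and the limma fit made different calls in that comparison. In the authors' deposited tables against control in GM, Myl4 for MUNC spliced (1.14, adjusted p = 0.0131), Myl1 for MUNC spliced (7.76, adjusted p = 2.91e-07) and Myl6b for MUNC genomic (0.82, adjusted p = 0.00767) were also called, while Myl6 for MUNC spliced was not (0.34, adjusted p = 0.155).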

How the data were processed

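The 18 libraries held polyadenylated RNA sequenced on an Illumina instrument, per the labels. The submitters' processing notes name STAR, HTSeq, DESeq2 and mm10; versions and the strand setting are not given in the sources used here. The authors deposited a table in FPM, a normalized signal in which each library's values are whole multiples of a single step. A label of the samples names a table in FPKM; since the step is the same for genes of every length, values were read as not divided by gene length. Dividing by the step gave whole reads, within 0.05, for 100% of values. The authors also deposited 5 tables with log2 fold changes and adjusted p-values, per the file headers, and with mean counts and statistics, given there as scores, that were not used.

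Groups came from sample titles, and the labels give no batch. The members and lists were chosen with earlier results of these data known. The naming rule was to report all 9 members, of which Myl2 and Myl3 could not be tested, in every comparison, the other light chains and kinases where their values bear on them, and from each list up to 2 called genes with the largest change. A few genes that these rules name are not reported here. The 12 comparisons were contrasts of 1 limma fit (version 3.58.1, R 4.3.3) to log2(FPM + 1), with 6 group means and a mean-variance trend. The fit was tested on simulated data with known changes. The simulation used the same spread setting for every gene and no replicate effect, so it checks the code and not the fit to these data. Alternatives were a pseudocount of 0.1, no filter, equal FPM sums, only the compared groups, a replicate block, each library left out, and edgeR 4.0.16 and DESeq2 1.42.0 on the recovered reads. On those reads edgeR called 8034 genes between control DM3 and control GM and 777 for the MUNC genomic interaction, where limma called 8078 and 1222. Replicates are labelled biological, so p-values measure their spread.

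Replicate numbers, which are in the titles, were checked for pairing by correlating deviations from group means. Of 45 pairs of libraries with the same number, 36 had r over 0.1 (range -0.0569 to 0.727). In 37 of the 45 the same number gave a higher r than the other numbers did. All pairs had r over 0.1 for control GM with each MUNC line's GM, for control DM3 with each MUNC line's DM3, for control GM with control DM3 and between the MUNC lines in GM. GENCODE M21 on GRCm38 held 34490 of the 35275 identifiers (97.8%). Mrtfa and Mrtfb were not found under those symbols in the table and were read as Mkl1 and Mkl2. Proteins were not analysed here.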

Additional observations from a re-analysis of the deposited data

Results flagged for a closer look

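In 5 cases the response to differentiation differed between kinds of cell by the test of the difference itself, with limma on log2(FPM + 1). Myl4 responded more than in control by 2.27 in MUNC spliced and by 1.61 in MUNC genomic cells. Myl6 responded more than in control by 0.78 in MUNC genomic cells, where it did not fall in DM3. The response in MUNC spliced was lower than in MUNC genomic cells by a log2 difference of -1.59 for Myl9 and -0.93 for Myl6. In 2 more cases the same test passed for Myl1, with 2.97 in MUNC spliced and 2.28 in MUNC genomic cells, but they carry no weight as tests: Myl1 had 0 reads in control GM and passed the filter on low values only through the MUNC lines. On recovered reads neither was called, and the first reversed to -0.96 with edgeR and -0.49 with DESeq2.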

How the results depend on the processing

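Apart from libraries left out, 542 values of single members kept their direction and side of the threshold, 23 newly passed it, 15 no longer passed it and 8 changed sign. The count of members called for MUNC spliced against control in GM, 3, became 5 at a pseudocount of 0.1 and 5 with DESeq2. For MUNC genomic against control in GM the count of 1 became 2 with equal FPM sums, 2 with the replicate block, 2 with only the compared groups and 3 with DESeq2, and 0 to 1 with a library left out. For MUNC spliced against MUNC genomic the count of 2 in GM became 1 without the filter and 1 to 2 with a library left out, and the count of 5 in DM3 became 3 with only the compared groups. The MUNC spliced interaction count of 2 became 1 with edgeR and 1 with DESeq2, since Myl1 there reversed to -0.96 and -0.49. The difference of the lines' responses reversed for Myl1 to -0.88 at a pseudocount of 0.1, -2.03 with edgeR and -2.16 with DESeq2, and for Myl6b from -0.0125 to 0.0159, 0.11 and 0.0939. With a library left out, values near 0 changed sign: Myl6b in control DM3 against GM ran from -0.24 to 0.28, Myl6b in the lines' responses from -0.25 to 0.16, Mylpf there from -1.03 to 0.15, Myl9 in MUNC genomic against control GM from -0.14 to 0.28, Myl9 on differentiation of MUNC spliced cells from -0.0559 to 0.42 and Mylk in the MUNC spliced interaction from -0.31 to 0.55. The cause was not tested.

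The replicate block moved the Myl4 and Myl6b calls in GM given in the report and the MUNC spliced interaction of Myl9, from an adjusted p of 0.115 to 0.0253. The MUNC spliced GM and DM3 numbers paired only in part by the correlation used, with r of 0.376, 0.217 and 0.0163 for replicates 1, 2 and 3. The block changed no other member call. Depth limits Myl2, Myl3 and control Myl1, which rest on a few reads.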
